A study of Mus musculus with 4 samples.

Results

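Topologically associating domains (TADs) that formed 1 TAD in 1 culture and 2 or more consecutive TADs in the other were examined in AML12 cells, an immortalized mouse hepatocyte line, grown in 2D or in 3D. A TAD was taken when its start and end lay within 40 kb, which is 1 bin of the contact map, of the outermost ends of a run of 2 or more consecutive TADs of the other culture. On the 19 autosomes, 181 of 4094 TADs of the 3D-cultured cells spanned 2 or more TADs of the 2D-cultured cells and are called joined. In the opposite direction, 61 of 4221 TADs of the 2D-cultured cells spanned 2 or more TADs of the 3D-cultured cells and are called split. These are 242 of the 8315 autosomal TADs in both lists. The members were chosen by the TAD positions themselves, so the counts, the sizes and the absence of the inner borders from the other list describe the selection.

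The chromatin contacts had been measured by in situ Hi-C, which ligates and sequences DNA ends that lie close together in the nucleus, in 2 biological replicates of each culture. The 2D-cultured cells had been grown in dishes and kept in 1 mM hydroxyurea for 24 h, and the 3D-cultured cells had been embedded in Matrigel and kept in 1 mM hydroxyurea for 36 h. Both cultures thus carry a replication inhibitor that arrests cells at the G1/S boundary, and hydroxyurea time, dish or Matrigel growth and culture cannot be told apart. The authors combined the replicates before calling TADs, so each culture has 1 list, no spread between replicates and no depth per TAD can be given, and no test of a difference between the cultures was possible. The lists hold no expression values, so the hepatocyte identity of the cells could not be checked here. Intervals given below are 95% intervals that cover counting error only.

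A TAD is a stretch of chromosome whose parts contact each other more often than they contact the neighbouring stretch. TADs are known to be formed largely by cohesin, which extrudes loops of chromatin and is halted at sites bound by the zinc finger protein CTCF, and their borders are often also the sites of active gene starts. Loss of a border lets the neighbouring stretches contact each other, which is why the genes on its sides are of interest.

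To show the DNA at the inner borders, the match to the CTCF core letters AGNGGGCGC nearest to an inner border, on either strand and within 40 kb, was read from GRCm38, the assembly that mm10 names, with 20 bases on each side. The capitals mark the match. A match is a description of the sequence and not a bound site, and 33.4% of all windows of this width on the 40 kb grid hold one. For joined TADs, the sequences shown lie beside 2D borders that were absent inside a 3D TAD, in regions described further below.
In a coding exon of Hspa14, chr2:3498050-3498098, minus strand: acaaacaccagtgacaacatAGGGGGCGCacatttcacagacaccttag
Intergenic, in the 3D TAD that holds Bcl9, chr3:97087506-97087554, plus strand: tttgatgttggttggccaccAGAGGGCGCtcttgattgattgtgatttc
In a coding exon of Bcat2, chr7:45588265-45588313, plus strand: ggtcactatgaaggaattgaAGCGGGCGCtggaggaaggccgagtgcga
In an intron of Nutf2, chr8:105862083-105862131, minus strand: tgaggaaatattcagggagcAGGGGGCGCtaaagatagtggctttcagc
In an intron of Zfp874b, chr13:67483988-67484036, minus strand: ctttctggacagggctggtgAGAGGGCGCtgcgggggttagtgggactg
The match in Hspa14 lies 21.9 kb from its border, that in the region of Bcl9 7.53 kb, that in Bcat2 11.7 kb, that in Nutf2 22.1 kb and that in Zfp874b 4.01 kb. Bcat2 lies at the border with the largest number of matches among those shown, with 5 within 40 kb.

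For split TADs, the sequences lie beside 3D borders that were absent inside a 2D TAD.
Intergenic, beside Klk14, chr7:43681147-43681195, plus strand: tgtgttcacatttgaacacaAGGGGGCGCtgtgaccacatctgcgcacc
Intergenic, beside Rbp3, chr14:33965833-33965881, plus strand: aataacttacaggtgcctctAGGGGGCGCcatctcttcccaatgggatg
Intergenic, in the olfactory receptor region, chr2:85251803-85251851, minus strand: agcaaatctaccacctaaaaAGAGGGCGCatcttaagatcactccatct
In an intron of Cadps, chr14:12410899-12410947, minus strand: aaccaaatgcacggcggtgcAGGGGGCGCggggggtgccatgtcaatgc
The match beside Klk14 lies 1.17 kb from its border, that beside Rbp3 5.86 kb, that in the olfactory receptor region 11.8 kb and that in Cadps 29.1 kb. The 9 letters in capitals differ between these sequences only at the third base, which is N in the letters searched.

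Joined TADs made up 4.42% of the 3D list (3.83 to 5.09%) and split TADs 1.45% of the 2D list (1.13 to 1.85%). Most joined TADs, 156 of 181, spanned 2 TADs, while 22 spanned 3, 2 spanned 4 and 1 spanned 6. Of the split TADs, 54 spanned 2 and 7 spanned 3. The joined TADs together covered 392 TADs of the 2D list, 9.29% of it, and the split TADs covered 129 TADs of the 3D list.

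Joined TADs outnumbered split TADs on 17 of the 19 autosomes. Chromosome 10 had 4 of each, and chromosome 14 had 4 joined and 6 split. No split TAD was found on chromosomes 4, 15 and 17. Chromosome 2 held the most joined TADs, 19 of its 321 3D TADs, and chromosome 3 the most split TADs, 8 of its 263 2D TADs. Of the joined TADs, 16 were next in the list to another joined TAD, and 0 of the split TADs were next to another split TAD. Joined TADs were also the larger share of their list, 4.42% against 1.45%, which by itself gives more neighbours. The numbers that these shares alone would give were not computed.

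The outer ends were identical in both lists for 113 joined TADs (62.4%) and for 34 split TADs (55.7%). A further 50 joined and 22 split TADs had 1 end shifted by 40 kb, and 18 and 5 had both ends shifted. The 68 joined TADs just inside the limit, with a largest shift of 40 kb, measured 240 to 5960 kb with a median of 600 kb, and the 135 3D TADs just outside, with a largest shift of 80 kb, measured 160 to 4680 kb with a median of 400 kb. The 27 split TADs just inside measured 320 to 5480 kb with a median of 1200 kb, and the 79 just outside measured 160 to 3840 kb with a median of 520 kb.

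Sizes are fixed in part by the selection, because the shortest TAD of either list measures 120 kb. The joined TADs had a median of 600 kb, with quartiles of 360 and 1440 kb and a range of 240 to 5960 kb, against a median of 280 kb over the 3D list. Split TADs were longer, with a median of 1160 kb, quartiles of 520 and 1720 kb and a range of 240 to 5480 kb, against a median of 240 kb over the 2D list. Joined TADs took up 201 Mb, 9.05% of the TAD length of the 3D list, and split TADs 85.0 Mb, 3.93% of that of the 2D list. The share of TADs that were joined was 6.13% at 240 to 600 kb (5.05 to 7.42%), 8.33% at 640 to 2000 kb (6.41 to 10.8%) and 13.7% above 2000 kb (9.90 to 18.7%). The share that were split was 1.39% (0.891 to 2.16%), 5.01% (3.55 to 7.02%) and 4.91% (2.76 to 8.58%) in the same size classes. The 2 directions differed most in number among short TADs, of which 97 were joined and 19 were split, and most in percentage points above 2000 kb.

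**Figure D1:**
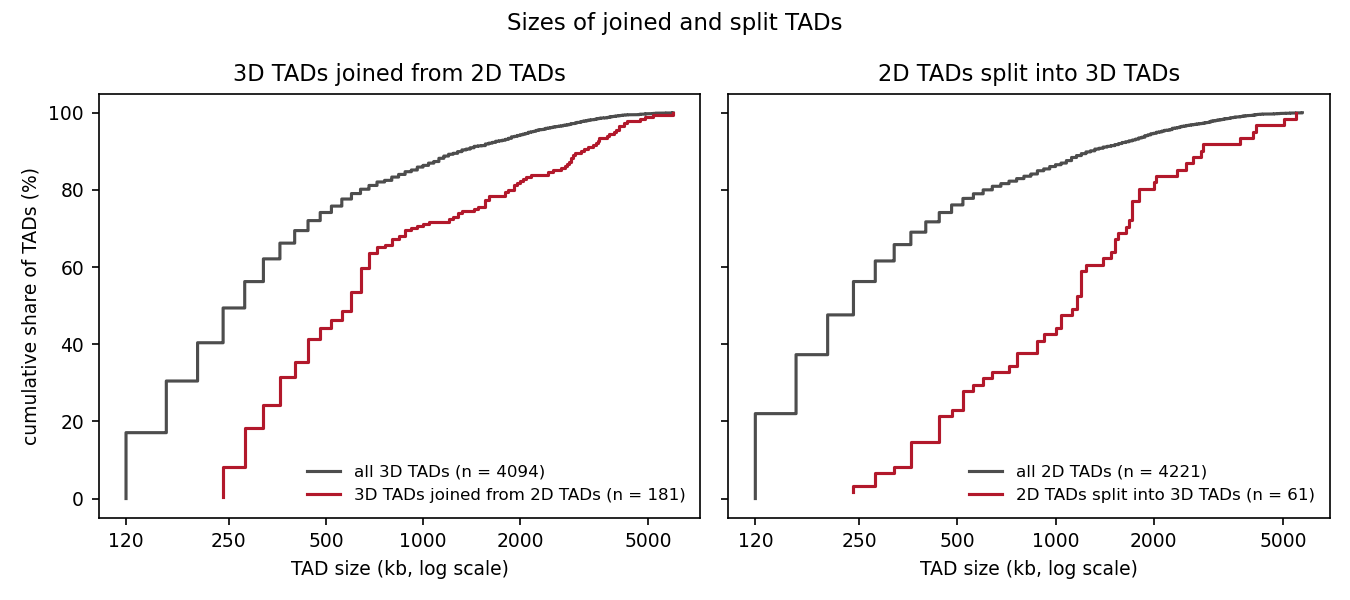
Cumulative share of TADs in percent (vertical axis) by TAD size in kb (horizontal axis, log scale) for the 181 joined 3D TADs beside all 4094 autosomal 3D TADs and for the 61 split 2D TADs beside all 4221 autosomal 2D TADs. Both red curves lie to the right of the black ones, with medians of 600 kb against 280 kb and of 1160 kb against 240 kb, and no member is shorter than 240 kb.

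The inner TADs usually touched each other. Of the 211 junctions inside joined TADs, 186 (88.2%) abutted, and of the 68 inside split TADs, 60 (88.2%) did, while 65.7% of all consecutive junctions of the 2D list and 73.6% of those of the 3D list abutted. The other junctions held a stretch assigned to no TAD of that list, up to 480 kb long in joined TADs. TADs of 120 kb, the shortest in the lists, were 131 of the 392 inner TADs of joined members (33.4%) against 22.0% of the 2D list. Among the inner TADs of split members they were 28 of 129 (21.7%) against 17.1% of the 3D list. When a joined TAD covered 2 inner TADs, the smaller had a median of 120 kb and the larger of 280 kb. In split TADs the corresponding medians were 160 kb and 800 kb. Both TADs of a pair measured 160 kb or less in 46 of 156 pairs of joined TADs and in 7 of 54 pairs of split TADs. The share over all consecutive pairs of either list was not computed. TADs of 120 kb were more frequent in the 2D list as a whole, as given above.

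The joined TAD with the most inner TADs was chr2:3320001-4880000. It measured 1560 kb in 3D and was divided in 2D into TADs of 120, 280, 480, 200, 160 and 240 kb, with an 80 kb stretch assigned to none. Its 13 protein-coding gene starts lay unevenly, with 5 in the 120 kb TAD and 0 in those of 200 and 160 kb. Near the lost border at 3440000 lay the starts of Dclre1c, a nuclease of DNA end joining and antigen receptor rearrangement, 15.9 kb away, of Meig1, which is required for sperm formation, 17.4 kb away, and of Suv39h2, a histone H3 lysine 9 methyltransferase, 35.0 kb away. The border at 3520000 had Cdnf, which encodes a neurotrophic factor, at 6.97 kb and Hspa14, a chaperone gene, at 7.19 kb. Prpf18, which encodes a splicing factor, started 12.1 kb from the border at 4640000. The borders at 3800000, 4280000 and 4480000 had no protein-coding gene start within 40 kb.

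A pair of joined TADs covered 4 inner TADs each. The TAD chr6:54560001-55200000 measured 640 kb and united TADs of 120, 120, 200 and 200 kb, and a gene started near each of its 3 lost borders. Mturn started 1.62 kb from the first, Znrf2, which encodes a ubiquitin ligase, 16.9 kb from the next, and Ggct, an enzyme of glutathione breakdown, 7.05 kb from the last, with Nod1, an intracellular sensor of bacterial peptidoglycan, at 27.4 kb and Gars, the glycyl-tRNA synthetase, at 38.0 kb. The TAD chr3:96920001-97600000 measured 680 kb and united TADs of 160, 120, 160 and 240 kb. It held 4 gene starts, among them that of Bcl9, a coactivator of Wnt signalling, and none lay within 40 kb of its 3 lost borders.

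The 3 longest joined TADs were poor in genes. The longest, chr16:78640001-84600000, measured 5960 kb and united TADs of 3720, 120 and 2160 kb that held 5 gene starts, among them that of Ncam2, a neural cell adhesion gene. The TAD chr16:66080001-71240000 measured 5160 kb and held 3, among them that of the synaptic adhesion gene Cadm2, and chr3:22240001-27120000 measured 4880 kb and held 3, among them that of Nlgn1, which encodes a postsynaptic adhesion protein. No lost border of these 3 TADs had a gene start within 40 kb. The shortest joined TADs measured 240 kb, and several tie at that size. The 3 named each united 2 TADs of 120 kb. Of these, chr2:112240001-112480000 held 7 gene starts, with Emc4, a subunit of the membrane protein insertion complex of the endoplasmic reticulum, 8.03 kb from the lost border and Katnbl1 at 19.2 kb. The TAD chr3:37200001-37440000 held 6, with the centrin gene Cetn4 at 7.29 kb, the Bardet-Biedl syndrome gene Bbs12 at 7.45 kb and the growth factor gene Fgf2 at 28.3 kb. The TAD chr2:170120001-170360000 held 1 gene start, and none near its lost border.

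Among the joined TADs with the most gene starts, chr19:12000001-13920000 had 73 gene starts, of which 62 were olfactory receptor genes, and its lost borders lay near the perforin-related genes Pfpl, at 12.1 kb, and Mpeg1, at 20.8 kb, and near Dtx4, at 18.5 kb. The TAD chr7:9960001-12880000 had 43 and includes Zscan4 genes, known from early embryos, with Zscan4d 6.16 kb and Zscan4e 30.7 kb from lost borders. The TAD chr13:66880001-67840000 had 35, of which 23 were zinc finger genes, and Zfp874b lay 4.26 kb from the lost border at 67480000 and Zfp729b 9.71 kb from that at 67600000. The TAD chr7:39400001-43360000 had 31, of which 25 lay in the larger of its 2 inner TADs of 1920 and 2040 kb, and none near its lost border. Reads from such families of near-identical genes can be hard to assign in a short-read map. How well they were assigned in these regions was not examined.

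The lost borders of joined TADs with the most gene starts were in short, gene-rich TADs. At 45600000 of chromosome 7, inside chr7:45440001-45720000 (280 kb, 22 gene starts), 6 genes started within 40 kb. They were Fgf21, a hormone secreted by hepatocytes, at 15.5 kb, the fucosyltransferase gene Fut1 at 17.3 kb, Izumo1, the sperm protein of egg fusion, at 21.8 kb, Rasip1 at 27.5 kb, the branched-chain aminotransferase gene Bcat2 at 29.8 kb and Mamstr at 40.0 kb. The TAD chr8:105560001-106040000 (480 kb, 28 gene starts) covered 3 TADs of 120, 160 and 120 kb and had 3 lost borders with 5, 5 and 6 gene starts. Its border at 105680000 lay in an intron of Ctcf (ENSMUSG00000005698), the gene for the CTCF protein itself, whose start was 43.4 kb away, and Carmil2, a regulator of actin capping, started at 6.27 kb. At the border at 105840000 were Tsnaxip1, at 12.3 kb, Ranbp10, at 12.7 kb, and Cenpt, which encodes a kinetochore protein, at 13.3 kb. At 105920000 were the chymotrypsin-like gene Ctrl, at 13.9 kb, the immunoproteasome gene Psmb10, at 18.4 kb, and Lcat, which encodes the plasma enzyme that esterifies cholesterol and is secreted by the liver, at 23.4 kb.

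Other lost borders with 5 gene starts included 128200000 of chromosome 10 and 133520000 of chromosome 4. The first, inside chr10:128040001-128320000, had the glutaminase gene Gls2 at 5.54 kb and Timeless, which encodes a component of the replication fork, at 32.1 kb. The other, inside chr4:133320001-133600000, had Kdf1, a gene of keratinocyte differentiation, at 1.04 kb, Nudc, a gene of dynein function, at 26.0 kb and Nr0b2, the nuclear receptor that represses bile acid synthesis, at 33.4 kb.

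The 5 longest of the 7 split TADs with 3 inner TADs included chr5:45560001-48400000, which measured 2840 kb in 2D and was divided in 3D into TADs of 160, 200 and 2520 kb. The inner border at 45680000 fell in an annotated exon of Ncapg (ENSMUSG00000015880), which encodes a subunit of condensin, whose start was 10.1 kb away, and Lcorl started 22.4 kb from that at 45880000. The TAD chr6:56920001-58600000, of 1680 kb and with 35 gene starts, holds vomeronasal receptor genes, and its inner borders lay near Herc6, at 19 kb, Pyurf, at 12.1 kb, and Lancl2, at 22.5 kb. In chr14:67960001-69160000, of 1200 kb, the neurofilament gene Nefm started 35.2 kb from 1 inner border and no gene started near the other. In chr3:67480001-68480000, of 1000 kb, Mfsd1, a lysosomal membrane protein gene, started 17.3 kb from 1 inner border and Schip1 24.8 kb from the other. In chr2:14160001-15040000, of 880 kb, no gene started near either inner border.

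The longest split TAD, chr1:144360001-149840000, measured 5480 kb and held 3 gene starts, those of Rgs21, Rgs18 and Brinp3, all in the first of its 2 inner TADs of 3080 and 2240 kb. The next, chr2:85120001-90160000, measured 5040 kb and was divided in 3D into TADs of 120 and 4920 kb. It held 230 gene starts, 228 of them in the larger piece, and 222 of the 230 were olfactory receptor genes. The third, chr14:80240001-84360000, of 4120 kb, held 0 protein-coding gene starts. None of these 3 had a gene start within 40 kb of an inner border. The shortest split TADs named were chr2:127560001-127800000, with the myelin and lymphocyte gene Mal 23.3 kb from the inner border, chr14:12320001-12560000, with no gene start near it, and chr8:24520001-24800000, with Adam18, which encodes a sperm surface protein, at 34.8 kb. The last, of 280 kb, is tied in size with chr11:95000001-95280000, which holds Itga3.

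Kallikrein genes, which encode secreted serine proteases, lay in the split TAD chr7:43600001-44360000. It measured 760 kb in 2D, held 37 gene starts, and was divided in 3D into TADs of 120, 560 and 120 kb. The inner border at 43680000 lay near Ctu1, a gene of tRNA thiolation, at 7.98 kb, Klk14 at 10.4 kb, Siglece at 19.8 kb and Klk13 at 32.6 kb. The inner border at 44240000 had 8 gene starts within 40 kb, among them those of Klk1 at 14.6 kb, Acp4 at 17.4 kb and Klk1b5 at 24.1 kb. The TAD chr5:86840001-88560000, of 1720 kb and with 35 gene starts, held the Ugt2b genes, which encode enzymes that conjugate steroids and drugs, and the casein genes, and Ugt2b5 started 19.7 kb from its inner border. At 33960000 of chromosome 14, Rbp3, the retinoid carrier of the photoreceptor matrix, started at 6 kb, the ligand genes Gdf2 and Gdf10 at 19 and 36.4 kb, and Zfp488 at 18.8 kb. At 30880000 of chromosome 12, Alkal2, which encodes a ligand of the receptor ALK, started at 4.32 kb, the phosphatase gene Acp1 at 31.6 kb and Sh3yl1 at 31.7 kb.

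**Figure D2:**
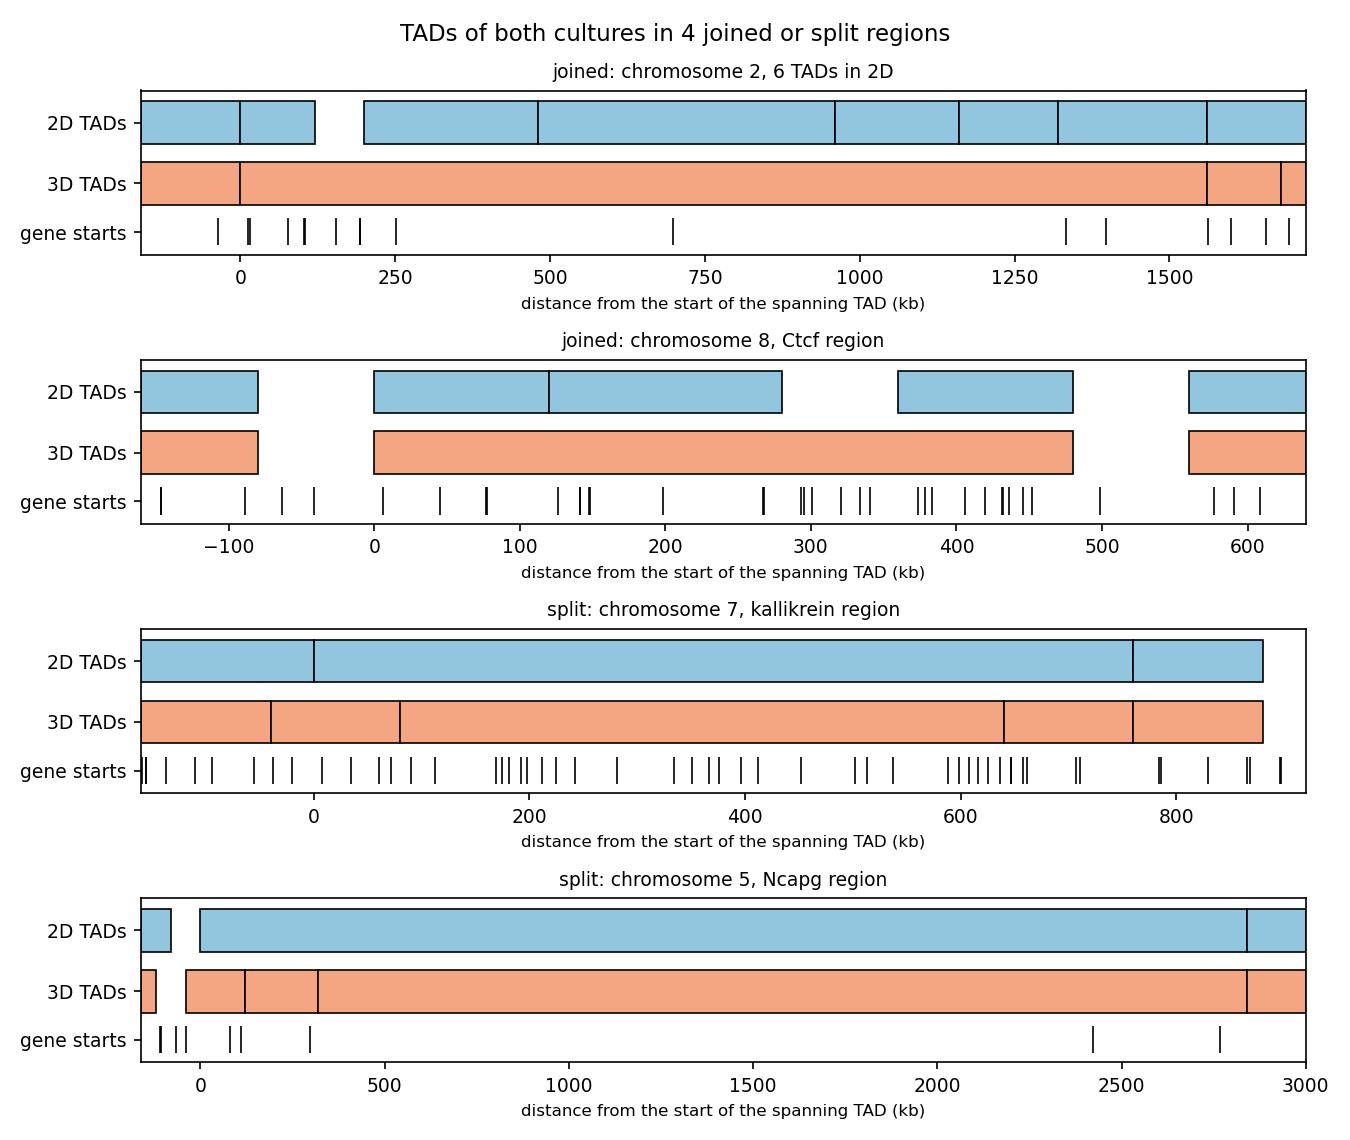
TADs of the 2D-cultured cells (blue boxes) and the 3D-cultured cells (orange boxes) and protein-coding gene starts (black ticks) in 4 regions, by distance in kb from the start of the spanning TAD, with 160 kb shown on each side. In the upper panels 1 orange box covers 6 and 3 blue boxes, and in the lower panels 1 blue box covers 3 orange boxes, with ends that are identical or 40 kb apart.

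Joined TADs contained 1323 protein-coding gene starts, or 6.57 per Mb (6.22 to 6.93), against 7.86 per Mb over the 3D list, and split TADs contained 636, or 7.48 per Mb (6.91 to 8.09), against 7.43 per Mb over the 2D list. Short and long members differed. At 240 to 600 kb, joined TADs held 19.5 gene starts per Mb (18.1 to 20.9), against 12.8 over all 3D TADs of that size and 11.2 in those with a counterpart in 2D, and their median number of gene starts was 6, against 3. At 640 kb or more they held 3.71 per Mb, against 3.73, and 3.30 (3.03 to 3.60) without the TAD of chromosome 19 with 73 gene starts. Split TADs of 240 to 600 kb held 8.76 per Mb (6.80 to 11.1), against 10.8 over all 2D TADs of that size. At 640 kb or more they held 7.35 per Mb, against 3.73, but 230 of their 568 gene starts were in the olfactory receptor TAD of chromosome 2, without which the value was 4.68 per Mb (4.20 to 5.21). Over all split TADs the value without it was 5.08 per Mb. No TAD was left out of the lists beside them, although the 3D list also has a TAD of this size class with 228 gene starts. Neighbouring genes of a cluster are not independent, so these intervals are too narrow.

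A TAD that unites short TADs lies where TADs are short, and such places were rich in genes also where nothing was joined. Joined pairs were therefore set beside abutting pairs of the 2D list whose 3 borders were all present in 3D, a comparison added after seeing the data. At a summed size of 240 to 600 kb, the 84 joined pairs held 17.9 gene starts per Mb (16.4 to 19.5) and the 909 other pairs 16.6 (16.2 to 17.0). Their GC content was 45.2% and 45.3%. At 640 kb or more, the 55 joined pairs held 2.50 per Mb (2.22 to 2.80) and the 918 other pairs 4.62 (4.52 to 4.73), with GC contents of 40.4% and 40.8%. For split TADs, the 15 pairs of 240 to 600 kb held 9.68 per Mb (7.29 to 12.6), against 18.5 (18.1 to 18.9) in 1164 pairs, and the 32 longer pairs held 7.84, or 4.29 (3.75 to 4.88) without the olfactory receptor TAD, against 5.23 (5.13 to 5.33) in 1244 pairs. A TAD can belong to a pair on either side, so the pairs overlap. Against such pairs, short joined pairs differed from the others by less than the width of the interval. Short split pairs and long joined pairs held fewer genes per Mb. Long split pairs held more, with 7.84 (7.14 to 8.59) against 5.23, and held fewer only without the olfactory receptor TAD. No gene-rich pair was left out of the 1244 pairs beside them, so the direction for long split pairs is not settled. The long pairs are not matched in size, with medians of 1800 kb for joined pairs against 1320 kb, and of 1520 kb for split pairs against 1200 kb, and gene density is lower in longer TADs.

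Within pairs of unequal size, the smaller TAD of a joined pair held 8.01 gene starts per Mb and the larger 4.50. In split pairs the values were 5.84 and 7.31, but without the olfactory receptor TAD of chromosome 2 they were 5.76 and 3.60, so the smaller TAD had the higher density there as well. Without the joined TAD with the most gene starts, the values of joined pairs were 7.59 and 4.11. Shorter TADs were denser in the whole lists too. All 2D TADs of 240 to 600 kb held 10.8 gene starts per Mb and those of 640 kb or more 3.73. In the 3D list the values were 12.8 and 3.73. The smaller and larger TADs of other pairs are not given, so this is not a trait particular to joined or split pairs. Members without any protein-coding gene start were 2 joined TADs (1.10%), and 2 split TADs (3.28%). In the size class of 240 to 600 kb the shares were 1.03% of joined TADs against 2.65% of the 3D list and 5.26% of split TADs against 4.09% of the 2D list, and at 640 kb or more 1.19% against 3.15% and 2.38% against 3.80%, each resting on 1 member.

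Inside the joined TADs, 236 borders of the 2D list were absent in 3D, 4.15% of its 5681 borders and 23.5% of its 1005 borders without a counterpart in 3D. Inside the split TADs, 76 borders of the 3D list were absent in 2D, 1.46% of its 5189 borders and 13.5% of the 562 without a counterpart in 2D. A protein-coding gene started within 40 kb of 150 of the 236 inner borders lost in 3D (63.6%, 57.2 to 69.4%), against 72.6% of all 2D borders. At the outer ends of the same runs the share was 73.7% (69.0 to 78%), at 2D borders shared with 3D 74.4% (73.2 to 75.7%), at the other 2D borders without a counterpart 64.4% (60.9 to 67.7%), and at all positions of the 40 kb grid 37.4%. Of the 76 inner borders absent in 2D, 39 had a gene start within 40 kb (51.3%, 40.3 to 62.2%), against 73.6% of all 3D borders, 64.8% (55.9 to 72.7%) at the outer ends of the same runs, 74.6% at shared 3D borders and 67.9% (63.6 to 71.9%) at other 3D borders without a counterpart. In both directions the lost inner borders had gene starts less often than the shared borders, with intervals that do not overlap. In the joined direction their share was close to that of other borders without a counterpart.

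**Figure D3:**
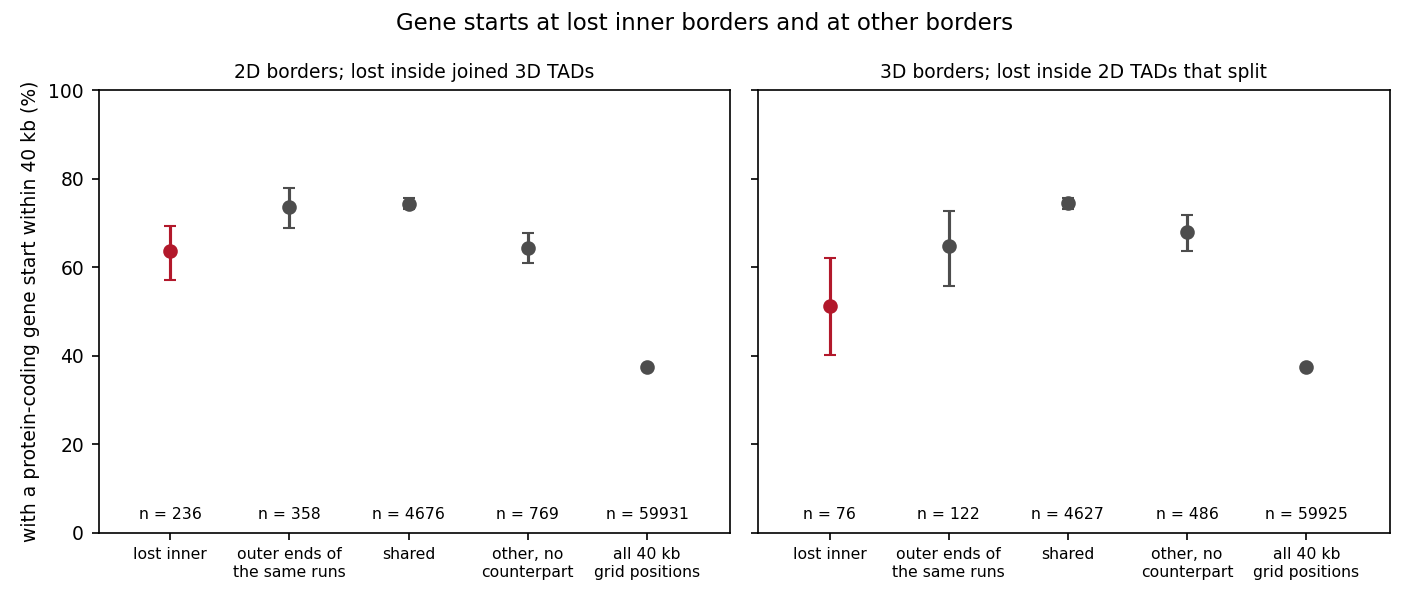
Share of borders in percent (vertical axis) with a protein-coding gene start within 40 kb, for lost inner borders (red) and other classes of border, with 95% Wilson intervals and the number of borders under each point. Lost inner borders lie at 63.6% in 2D and 51.3% in 3D, under the shared borders at 74.4% and 74.6% and above the 37.4% of all grid positions.

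Borders lost in 3D had a mean of 1.24 gene starts within 40 kb, against 1.52 over all 2D borders. Borders absent in 2D had 0.868, against 1.56 over all 3D borders, and grid positions had 0.691. The numbers below are not given for other borders. Of the 236 borders lost in 3D, 86 had 0 gene starts within 40 kb, 72 had 1, 40 had 2, 22 had 3, 8 had 4 and 8 had 5 or more. Of the 76 absent in 2D, 37 had 0, 25 had 1, 8 had 2, 3 had 3, 2 had 4 and 1 had 5 or more. In all, 292 genes started at a border lost in 3D and 66 at a border absent in 2D.

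The share also varied with position in the TAD. Lost borders that lay 80 to 200 kb from an outer end of a joined run had a gene start in 75.5% of 159 cases (68.2 to 81.5%), and those more than 200 kb away in 39.0% of 77 (28.8 to 50.1%). In split TADs the values were 60.0% of 40 (44.6 to 73.7%) and 41.7% of 36 (27.1 to 57.8%). Pairs of abutting TADs showed the same division by size. At a summed size of 240 to 600 kb, the middle border had a gene start in 79.8% of joined pairs (70.0 to 87.0%) and in 727 of 909 pairs with all borders shared (77.3 to 82.5%). At 640 kb or more the shares were 38.2% (26.5 to 51.4%) and 64.3% (61.1 to 67.3%). For split pairs they were 73.3% (48.0 to 89.1%) against 81.1% (78.7 to 83.2%), and 37.5% (22.9 to 54.7%) against 65.5% (62.8 to 68.1%). Thus the lower share at lost borders was found among long pairs, whereas no difference was detectable among short ones at these numbers. The long lost-border pairs were also longer than the pairs beside them, by the medians given above, and the share fell with size in the shared pairs too. The part of size in this difference was not tested.

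**Figure D4:**
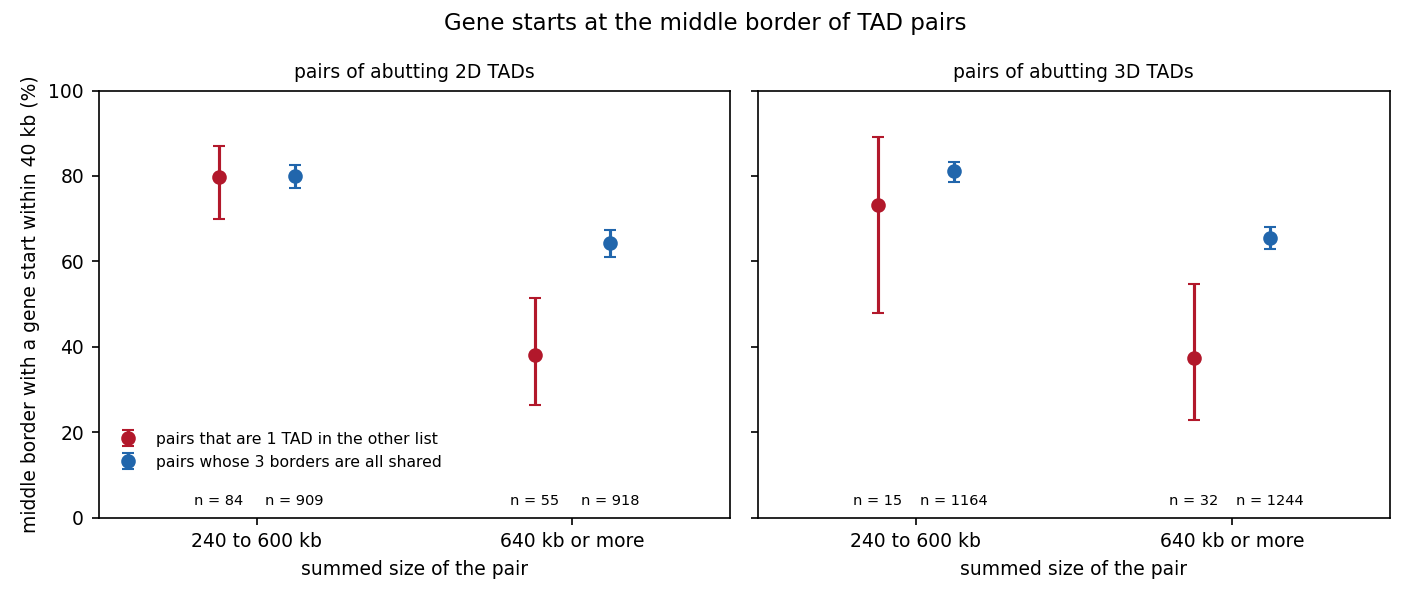
Share of pairs of abutting TADs in percent (vertical axis) whose middle border has a protein-coding gene start within 40 kb, by the summed size of the pair (horizontal axis), with 95% Wilson intervals and the number of pairs. Pairs that form 1 TAD in the other culture (red) and pairs with all 3 borders shared (blue) lie at 67 of 84 and 727 of 909 for short 2D pairs but at 38.2% and 64.3% for long ones.

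Many lost borders lay inside genes, as did many borders in general. The position fell in the body of a protein-coding gene for 133 of the 236 borders lost in 3D (56.4%, 50.0 to 62.5%). The share was 54.7% at the outer ends of the same runs (49.6 to 59.8%) and 55.6% over all 2D borders. Of the 76 borders absent in 2D, 32 lay in a gene body (42.1%, 31.6 to 53.3%), against 55.5% of all 3D borders. At the outer ends of the split runs the share was similarly low, at 43.4% (35.0 to 52.3%). Of the 133, 109 fell in introns only, 10 in a coding exon and 11 in a UTR exon, and of the 32, 24 fell in introns only. The parts of genes are not given for other borders, so they do not set lost borders apart. Genes whose coding exon held a lost border include Atm, the kinase of the DNA damage response, Nr2f2, a nuclear receptor gene, and Osm, which encodes the cytokine oncostatin M. These 3 were chosen for naming after their values were seen, and with 40 kb bins a border cannot be placed in an exon with certainty.

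The gene starts around a border form a peak in the shared class. On either side of shared 2D borders, 0.799 and 0.779 genes started in the 40 kb next to the border, and 0.606 and 0.601 in the 40 kb beyond. At the borders lost in 3D the values were 0.559 ± 0.051 and 0.678 ± 0.059 (SE, n = 236) next to the border and 0.496 and 0.500 beyond. At the borders absent in 2D they were 0.421 ± 0.084 and 0.447 ± 0.091 (SE, n = 76) next to the border and 0.368 and 0.211 beyond, against 0.802 and 0.772 at shared 3D borders and 0.346 on the whole grid. At the lost 2D borders the bins next to the border held more gene starts than those beyond on both sides, though on the left only by about the SE. Left and right follow the chromosome coordinates only. Whether the steps differ between the sides, or from those at shared borders, was not tested. Around borders absent in 2D the levels next to the border lay under those of shared borders. They exceeded the grid by only about their SE, so they cannot be told apart from it at this number of borders.

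**Figure D5:**
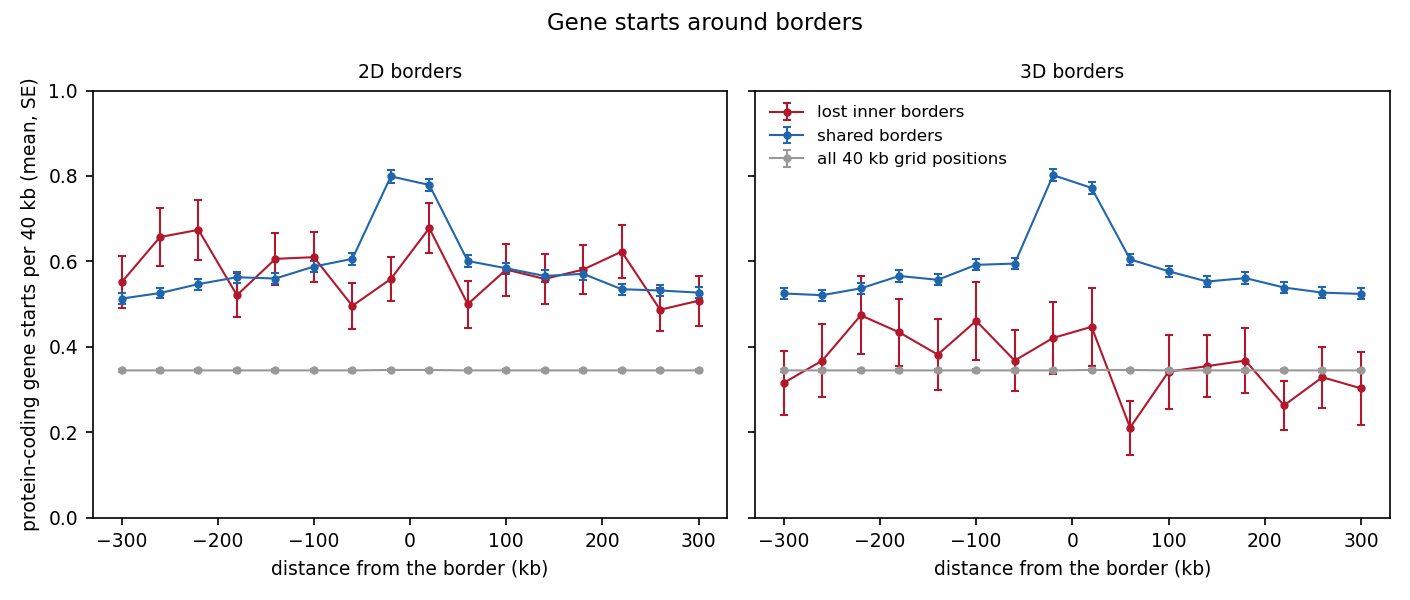
Protein-coding gene starts per 40 kb (vertical axis, mean with SE over borders) by distance from the border in kb (horizontal axis) for lost inner borders (red), shared borders (blue) and all positions of the 40 kb grid (grey), in the 2D and the 3D list. Shared borders peak at about 0.8 next to the border, lost inner borders lie at 0.559 and 0.678 in the left panel and at 0.421 and 0.447 in the right panel, and the grid lies near 0.346.

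Matches to AGNGGGCGC, counted on both strands within 40 kb to each side, occurred at 0.434 per 40 kb around borders lost in 3D (0.377 to 0.498), against 0.504 at the outer ends of the same runs, 0.486 at shared 2D borders and 0.258 on the grid. At least 1 match was found at 51.7% of these borders (45.3 to 58.0%), 55.2% of shared borders and 33.4% of grid positions. Around borders absent in 2D there were 0.276 per 40 kb (0.199 to 0.373), against 0.303 at the outer ends and 0.483 at shared 3D borders. At least 1 match was found at 39.5% of the borders absent in 2D (29.2 to 50.7%). The grid values of 0.258 and 33.4% lie within both intervals, so these borders could not be told apart from the grid by matches. Other 2D borders without a counterpart had 0.428 per 40 kb, close to the borders lost in 3D, and 47.6% of them had a match. For other 3D borders without a counterpart the values were 0.396 and 46.7%. GC content was 44.3% both around borders lost in 3D and at shared 2D borders. It was lower where matches were fewer, at 42.0% around borders absent in 2D and 41.9% on the grid, and its part in the motif counts was not tested. The letters AGGGGGCGC, which are 1 form of the motif, occurred at 0.144 and 0.105 per 40 kb at the borders lost in 3D and absent in 2D. They occurred at 0.176 and 0.0943 at the outer ends of the same runs, and at 0.160 and 0.159 at shared 2D and 3D borders. Over all 2D and 3D borders the values were 0.155 and 0.156, and on the grid 0.0837. The median step in GC content between the 120 kb before and after a border was 1.18 percentage points at borders lost in 3D and 1.21 at those absent in 2D, against 1.43 and 1.16 at the outer ends of the same runs, 1.48 at shared borders and 0.904 on the grid.

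Of all protein-coding genes on autosomes, 6.36% started inside a joined TAD, 3.06% inside a split TAD, 1.41% within 40 kb of a border lost in 3D and 0.318% within 40 kb of a border absent in 2D. Lists of genes of hepatocyte function, growth and chromosome structure were read against these shares. None of 33 genes of secreted hepatocyte proteins, such as those of albumin and the apolipoproteins, and none of 14 genes of the EGF receptor family and its ligands started in a joined or split TAD. Of 22 hepatocyte transcription factors and nuclear receptors, 2 did, Cebpb and Nr0b2, both in joined TADs and both at a lost border. Of 43 genes of hepatic metabolism, Asl and G6pc lay in joined TADs and Ugt2b1 in a split one.

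Cebpb (ENSMUSG00000056501), a transcription factor gene of hepatocyte growth and the acute phase, started in the joined TAD chr2:167480001-168080000 of 600 kb, which united TADs of 160, 240 and 120 kb and an 80 kb stretch assigned to none. The lost border at 167680000 lay in an intron of Tmem189, 8.91 kb from the start of Cebpb, and the others lay 12.1 kb from Ptpn1, a tyrosine phosphatase gene that damps insulin signalling, and 10.6 kb from Ripor3. Asl, which encodes the argininosuccinate lyase of the urea cycle, started 10.8 kb from the border at 130040000 inside chr5:129880001-130200000, which was divided in 2D into TADs of 120 and 160 kb, and Gusb, the lysosomal glucuronidase gene, started 37.0 kb from it. G6pc, which encodes the last enzyme of glucose release, lay in chr11:101200001-101440000, 47.6 kb from a border in a coding exon of the proteasome activator gene Psme3.

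In the list of chromosome architecture and the nuclear lamina, 4 of 37 genes lay in joined TADs, namely Ctcf, Lmnb2, Ncapd2 and Suv39h2, and 2 in split TADs, Ncapg and Syne1. Lmnb2, which encodes lamin B2, lay in chr10:80720001-81240000 with 29 gene starts, 81.8 kb from the lost border. Of 44 genes of G1/S and DNA replication, Rrm2, the ribonucleotide reductase subunit whose enzyme hydroxyurea inhibits, and the neighbouring cell cycle inhibitor genes Cdkn2a and Cdkn2b lay in joined TADs, with the lost border at 89280000 in an intron of Cdkn2a, 14.7 kb from its start and 31.0 kb from that of Cdkn2b. Among adhesion genes, Lamc1, which encodes a laminin chain, lay in a joined TAD, 333 kb from its lost border, and Itga3, an integrin gene, lay in a split one. Of 29 genes of TGF-beta and Hippo signalling, Nf2 and Tgfb2 lay in joined TADs, 410 and 306 kb from lost borders. The counts in these lists are too small to set apart from the shares over all genes.

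Families of genes with shared names were counted in the same way. Olfactory receptor genes in joined TADs were 69 of 1127 (6.12%) in 3 TADs, and those in split TADs were 222 (19.7%), all in 1 TAD. Of 385 Zfp genes, 54 (14%) lay in 13 joined TADs, 23 of them in the TAD of chromosome 13, and 21 (5.45%) lay in 9 split TADs, with 10 in 1 of them. Of the 54, 13 started at a lost border. Among solute carrier genes, 32 of 358 (8.94%) lay in 24 joined TADs and 3 (0.838%) in split TADs. The largest group was Slc17a1, Slc17a2, Slc17a3 and Slc17a4, phosphate and urate transporter genes, in chr13:23760001-24320000, which united TADs of 240 and 320 kb and whose lost border lay 8.79 kb from Scgn. Of 99 cytochrome P450 genes, 8 (8.08%) lay in joined TADs and 0 in split TADs. Of the 8, 6 were in chr17:32520001-33000000, where Cyp4f37 and Cyp4f40, of a family of fatty acid hydroxylases, started 18.7 and 18.9 kb from 1 lost border and Cyp4f14 started 37.3 kb from the other. Of 75 ribosomal protein genes, 3 lay in joined TADs and 1 in a split TAD.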

How the data were processed

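The values deposited by the authors are other than counts or intensities. They are start and end positions of TADs in mm10, which the authors called with Armatus (gamma 0.8) on 40 kb ICE-normalized maps of combined replicates (2 per culture, 4 libraries), set to the same depth in both cultures, after mapping with Bowtie2 (version 2.2.9). The lists hold no score, count or depth. Gamma sets the scale of the domains, and whether the members change at another gamma was not tested.

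Members were found on chromosomes 1 to 19 by the 40 kb rule. Members and gene lists were chosen with earlier results of these data known. A border is a distinct TAD start or end. Genes are the 20807 protein-coding genes of GENCODE M21 on the autosomes, placed by their start, and motifs and GC were read from GRCm38. Named regions are, in each direction, those with the most inner TADs (at most 5, the larger first), the 3 longest, the 3 shortest, the 4 with the most gene starts and those of the 4 lost borders with the most gene starts, with genes within 40 kb. Members tied with the last in a class are not named under this rule. Genes of the lists were named too, except for an item of the adhesion list that is not reported here. Shares carry Wilson intervals and densities exact Poisson intervals. No test was made, since TADs are not replicates. Python (3.11.15), numpy (2.4.6), scipy (1.17.1) and matplotlib (3.10.9) were used. On 3000 simulated TADs, 6 of 6 measures returned the known values. Alternatives are given at the end.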

Additional observations from a re-analysis of the deposited data

How the results depend on the processing

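Of 46 alternatives, 24 left their value within the limit set for it, which was 1.5 times for a count and the 95% interval for other values, and 22 moved it. Joined TADs numbered 113 and split TADs 34 with identical outer ends, 316 and 140 with ends within 80 kb, 55 and 28 among TADs of at least 200 kb, and 25 and 7 with 3 or more inner TADs, so joined TADs outnumbered split ones in each. With ends within 80 kb the median split TAD measured 700 kb. Counting all annotated genes gave 19 and 19.3 gene starts per Mb in joined and split TADs. Joined TADs in runs of abutting TADs held 5.68 per Mb, and split TADs held 8.57 with identical ends and 5.08 without the TAD with the most gene starts, an alternative chosen after seeing the data, as was the comparison with pairs. At borders lost in 3D the share with a gene start was 44.9% within 20 kb, 75% within 80 kb and 82.6% with all annotated genes, against 55, 87.8 and 89.0% at shared borders, and at borders absent in 2D 35.5, 65.8 and 75%. The stricter motif gave 0.144 and 0.105 matches per 40 kb, by its construction fewer, against 0.155 and 0.156 over all 2D and 3D borders. No paired analysis was possible because the replicates were combined before TADs were called, and for the same reason no replicate could be left out. The depth behind a TAD is unknown, so differences of 1 bin or of a weak border cannot be told apart from noise.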

Other observations

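Chromosome X was left out of the counts above. On it, 8 of 261 3D TADs were joined (3.07%, 1.56 to 5.93%) and 3 of 246 2D TADs were split (1.22%, 0.416 to 3.52%), both within the range of the autosomes.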
